A study of Homo sapiens with 4 samples.

Results

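The BRCA1-A complex genes are the 5 genes UIMC1, BRE, BRCC3, FAM175A and BABAM1, out of 20056 protein-coding genes in the RefSeq list used for counting. They were taken by symbol from a deposited table of 15131 BRCA2 sites. Of the 5 genes, 3 were paired there with a site, and FAM175A and BABAM1 had no row by symbol or by gene ID. The sites came from chromatin immunoprecipitation and sequencing (ChIP-seq) in hTert-HME1, a human mammary epithelial line immortalised with telomerase, harvested in log-phase growth and fixed with formaldehyde. There were 2 libraries precipitated with an antibody to BRCA2 and 2 libraries of input chromatin, all from this single line with no treatment named, and no control antibody was analysed here. At every site below, BRCA2 binding and unspecific pull-down therefore cannot be told apart. The log2 fold is the ChIP level over the input level at a site, and the FDR is the false discovery rate of that difference, both computed by the authors. Separate cultures are not stated for the libraries of a group, so the FDR reflects how far these libraries differed, perhaps only technically.

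The BRCA1-A complex brings BRCA1 to chromatin around DNA breaks. UIMC1, also called RAP80, recognises ubiquitin chains that are built on chromatin at a break. FAM175A, now ABRAXAS1, is the scaffold that joins UIMC1 to BRCA1. BRCC3, also called BRCC36, is the enzyme that cuts those ubiquitin chains, and BRE, now BABAM2, and BABAM1, also called MERIT40, are structural subunits. BRCC3, BRE and BABAM1 also belong to a cytoplasmic complex, BRISC, together with FAM175B and SHMT2. BRCA2 is a protein of homologous recombination, which the BRCA1-A complex restrains. The signal studied here is BRCA2 ChIP signal on the genes that encode the complex, and it is no measure of the complex itself.

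The start regions of the 5 genes are shown first, because the genes with and without a site at the start are set against each other below. Each window is that listed first for the gene by RefSeq on GRCh38.p14, runs from 250 bases before the start to 50 bases after it, and is written 5′ to 3′ on the strand of the gene. The sites are on hg19, so window and site were not aligned base by base. By its distance to neighbouring genes, given below, the UIMC1 window belongs to the strong site of that gene and not to its weak one. Capitals mark 4 motifs on either strand, none of which overlaps another kind in these windows. The GC box was searched as GGGCGG. The CCAAT box was searched by the letters of its name. The letters of the ETS core were ACTTCCGG and those of the YY1 core AAGATGGC. The first 3 genes had a BRCA2 site near the start and the last 2 had none.
UIMC1, chr5:177006745-177007044, reverse strand: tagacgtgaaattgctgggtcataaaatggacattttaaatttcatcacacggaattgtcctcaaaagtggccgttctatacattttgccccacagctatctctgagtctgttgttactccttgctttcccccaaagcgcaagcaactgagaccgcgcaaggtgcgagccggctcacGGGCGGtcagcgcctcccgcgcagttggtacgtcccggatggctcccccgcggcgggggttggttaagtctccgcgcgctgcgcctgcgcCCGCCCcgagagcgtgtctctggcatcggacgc
BRE, chr2:27890479-27890778, forward strand: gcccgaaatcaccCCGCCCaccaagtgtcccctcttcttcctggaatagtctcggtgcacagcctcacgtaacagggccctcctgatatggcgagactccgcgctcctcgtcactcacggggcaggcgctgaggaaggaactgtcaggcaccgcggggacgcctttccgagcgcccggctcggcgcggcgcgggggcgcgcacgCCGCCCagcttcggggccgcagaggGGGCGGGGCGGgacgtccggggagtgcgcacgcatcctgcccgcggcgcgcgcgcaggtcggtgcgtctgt
BRCC3, chrX:155071258-155071557, forward strand: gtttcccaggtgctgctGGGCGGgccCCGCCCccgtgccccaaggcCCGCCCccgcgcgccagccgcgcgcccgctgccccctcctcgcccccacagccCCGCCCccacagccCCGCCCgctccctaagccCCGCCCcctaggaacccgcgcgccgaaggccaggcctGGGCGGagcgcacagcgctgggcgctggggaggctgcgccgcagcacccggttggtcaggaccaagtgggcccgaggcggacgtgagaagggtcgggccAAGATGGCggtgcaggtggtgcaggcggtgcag
FAM175A, chr4:83485051-83485350, reverse strand: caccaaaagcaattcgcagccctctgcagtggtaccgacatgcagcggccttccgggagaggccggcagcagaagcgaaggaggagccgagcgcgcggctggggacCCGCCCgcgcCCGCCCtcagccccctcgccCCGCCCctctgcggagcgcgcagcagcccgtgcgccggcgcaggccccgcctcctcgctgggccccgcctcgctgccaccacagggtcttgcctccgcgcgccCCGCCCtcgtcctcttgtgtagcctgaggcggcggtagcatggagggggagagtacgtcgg
BABAM1, chr19:17267193-17267492, forward strand: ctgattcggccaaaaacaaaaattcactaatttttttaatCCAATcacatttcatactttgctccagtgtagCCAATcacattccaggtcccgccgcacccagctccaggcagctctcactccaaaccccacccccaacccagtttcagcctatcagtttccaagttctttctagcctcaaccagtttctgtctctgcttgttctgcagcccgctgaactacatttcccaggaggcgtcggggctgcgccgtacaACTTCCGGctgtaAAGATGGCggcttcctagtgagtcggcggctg

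The start regions differed in base composition. The BRCC3 window was 78.3% G and C and held 7 GC boxes, and that of FAM175A, which had no site, was 74.3% G and C and held 4. The BRE window was 72.3% G and C and held 4 GC boxes, of which a pair overlaps by 1 base, and the UIMC1 window was 58.7% G and C and held 2. The BABAM1 window was 51.7% G and C, with no GC box and 2 CCAAT boxes. CpG dinucleotides numbered 28 in UIMC1, 41 in BRE, 33 in BRCC3, 36 in FAM175A and 12 in BABAM1, where the median of all 35116 windows was 14. The YY1 core stood once in BRCC3 and once in BABAM1 and in 2.89% of all windows. The ETS core stood in BABAM1 alone of the 5, and in 4.14% of all windows, while a GC box stood in 45.0% of them and a CCAAT box in 34.6%. A TATA box (TATAAA) and a cAMP response core (TGACGT) stood in none of the 5 windows, and in 11.5% and 7.98% of all windows. These motifs were picked with the sequences in view, and a match is a run of letters, not a bound site. The CpG-rich windows include that of FAM175A, so this feature did not separate the genes with a site from those without.

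Of the 5 genes, 3 had a site at any distance, beside 44.2% of all protein-coding genes. UIMC1, BRE and BRCC3 each had one within 1 kb of the start, beside 23.4% of all protein-coding genes. A site with a log2 fold of at least 2 was paired with UIMC1 and BRE, 2 of the 5, beside 7.82% of all protein-coding genes. The 3 genes also each had a site under an FDR of 0.01 (37.0% of all protein-coding genes), under 0.001 (26.0%), at a log2 fold of at least 1 (34.7%) and overlapping the gene itself (36.0%). UIMC1 and BRE, but not BRCC3, were the nearest listed start of a site by the listed distance, beside 30.6% of all protein-coding genes. That distance runs from the lower-numbered edge of a site, and the BRCC3 site covers the listed starts of both BRCC3 and CMC4. Near the start, 3 of the 5 had a site within 3 kb (27.1%), within 5 kb (29.1%) and within 1 kb by the shortest distance (23.7%). BRE and BRCC3 had a start site with a log2 fold of at least 1, beside 17.8%. The group is small, and these counts describe it without a test. The strongest site per gene had a median log2 fold of 2.51 over the 3 genes and 1.31 over the 8855 protein-coding genes with a site. BRCC3 ranked 2051st, BRE 925th and UIMC1 103rd among those 8855 genes by strongest site.

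UIMC1, the ubiquitin reader, carried the strongest signal of the group, at a site that the table places inside the gene. In the authors' deposited table this site, at chr5:176433611-176434110 on hg19, had a mean log2 concentration of normalized reads of 10.22 over the ChIP libraries and 4.81 over the input libraries. The log2 fold in the authors' deposited table was 5.42, a 42.8-fold enrichment, with an FDR of 6.89e-67. The site lies inside UIMC1, 16023 bp from the listed start by its far edge and 15524 bp by its near edge, and the table pairs it with no other gene. Whether it is exonic or intronic was not analysed here.

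The table gives 1 start for UIMC1, and by distance to neighbouring genes the RefSeq starts lie elsewhere. RefSeq holds 3 UIMC1 starts within 352 bp of each other. On GRCh38.p14 they lie 15902, 15917 and 16254 bp from the start of ZNF346, the neighbour on the other strand, and on hg19 the strong site covers the stretch from 15587 to 16086 bp from the listed start of ZNF346. From UNC5A, a gene on the other side, the RefSeq starts lie 196235, 196220 and 195883 bp away and the site covers 196133 to 196632 bp. From TSPAN17 they lie 359310, 359295 and 358958 bp away and the site covers 359223 to 359722 bp. By each of these 3 neighbours, 2 of the 3 RefSeq starts thus fall within the strong site, and none falls within the weak site at the listed start. NSD1, another neighbour, has 5 RefSeq starts, of which 1 gives the same placement. The distances were measured within each build and no position was carried over, so the match assumes that the stretch between has the same length in both. For the other genes the neighbours differed. The RefSeq start of BRCC3 fell within its site by CMC4 but not by FUNDC2 or VBP1. A RefSeq start of BRE fell within its site near the listed start by FOSL2 and MRPL33 but not by RBKS or SUPT7L. The UIMC1 match was looked for after the values were seen. The UIMC1 sequence printed above is the window of the start at 15902 bp.

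The strong UIMC1 site stood high in the whole table. Of all 15131 sites, 10.9% had a log2 fold of at least 2, as 2 of these 7 sites did, and 1.05% had at least 5, as this site did. An FDR under 0.01 was held by 7 of the 7 and 74.0% of all sites, one under 0.001 by 3 of the 7 and 44.6%, and a log2 fold of at least 1 by 4 of the 7 and 66.9%. It was 78th by log2 fold, 122nd by FDR and 145th by ChIP concentration, and 4th by log2 fold among the 784 sites of chromosome 5. Of the 10089 sites over 1 kb from every listed start, 0.297% had a log2 fold of at least 5, and the UIMC1 site was 7th. Of the 5042 sites within 1 kb of a listed start, 1.41% had a larger fold than it. Among 3153 sites inside a protein-coding gene and over 10 kb from any listed start, it was 4th, and their median log2 fold was 1.09. The 3 sites above it lay in BCL9 at 6.05, ZNF630 at 5.79 and TMEM260 at 5.44 in the authors' deposited table. BCL9 had an input concentration of 1.78 there, so its fold rests on little input, whereas ZNF630 had 4.84 and UIMC1 4.81. Whether those 3 sites also lie at a RefSeq start was not analysed here. The input at the strong UIMC1 site was below the median of 5.42 over all sites, and 12.1% of sites had less.

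**Figure D1:**
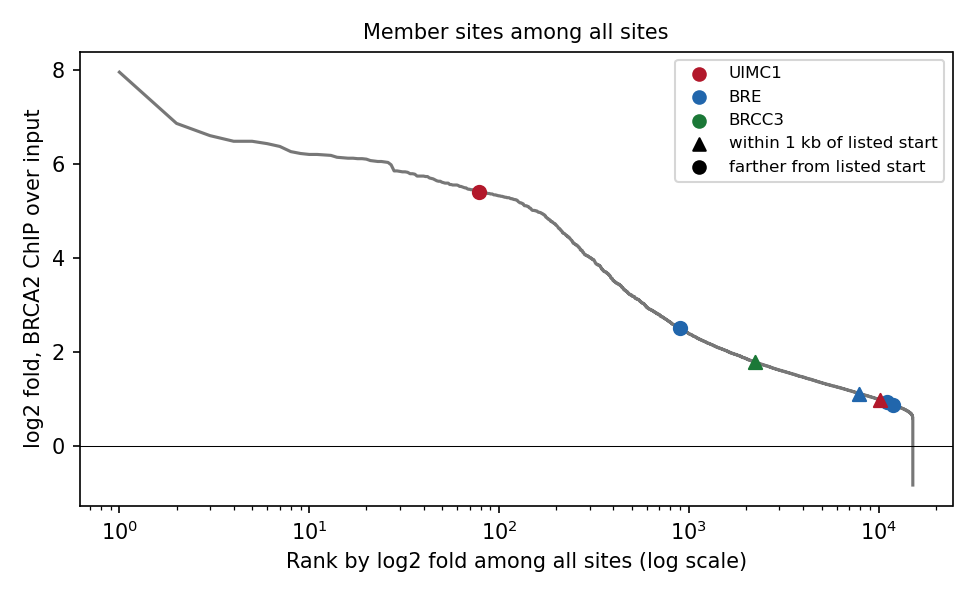
All 15131 sites in order of log2 fold (grey line, log-scaled rank on the horizontal axis, log2 fold of BRCA2 ChIP over input on the vertical axis) with the 7 sites of UIMC1, BRE and BRCC3 as points. The strong UIMC1 site is at rank 78, and 4 of the other 6 are at rank 7907 or later.

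At its listed start, next to ZNF346, UIMC1 had a weak site. The authors' deposited table gives a log2 concentration of 6.31 in ChIP and 5.32 in input at chr5:176449453-176449952, with a log2 fold of 0.99 (FDR 0.00685). Of the 5042 sites near a start, 23.9% had a smaller fold. The strong site thus exceeded the site at the listed start by 4.43 on the log2 scale, a 21.6-fold difference in enrichment. By listed starts, a start site and an inner site over 1 kb from every start were both present in 793 protein-coding genes. In those genes the strongest inner site minus the strongest start site had a median of -0.08, and the inner site was the stronger in 43.0%. The difference reached 2 in 2.77% of them. UIMC1 ranked 2nd of the 793, after TUSC2 with 4.76 and ahead of CPEB4 with 4.09. No spread per library is available for these differences. They are a description by listed starts, and an inner site such as that of UIMC1 can lie at another start of its gene.

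**Figure D2:**
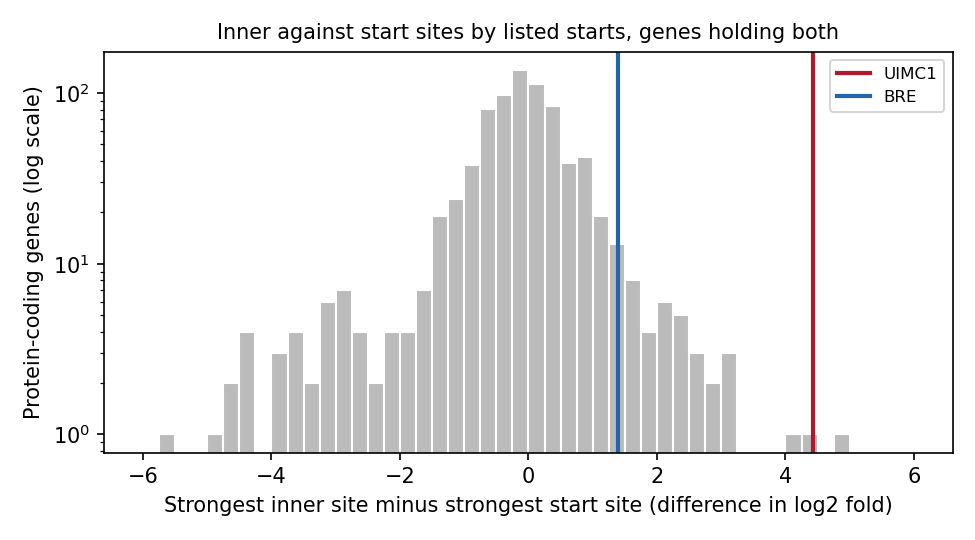
Number of protein-coding genes (log scale) by the log2 fold of the strongest inner site minus that of the strongest start site, over 793 genes with both by listed starts. UIMC1 (4.43) is at the right end and BRE (1.39) in the upper part. SLC35E2B, at -7.13, lies outside the drawn range.

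BRE, the long structural subunit gene, had 4 sites, of which the strongest was far from any start. By the distances in the authors' deposited table the gene spans 448961 bp on hg19. Its strongest site, at chr2:28491300-28491799, had a log2 concentration of 7.81 in ChIP and 5.31 in input. The log2 fold there was 2.51 with an FDR of 2.91e-13 in the authors' deposited table, at 378492 bp from the start and 84.3% of the way along the gene. Among sites over 1 kb from every listed start, 4.47% had a larger fold. By the distances to RBKS, FOSL2, MRPL33 and SUPT7L, measured as for UIMC1, neither of the 2 RefSeq starts of BRE was nearer to it than 376993 bp.

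The other 3 sites of BRE were weak. Near the start, at chr2:28113159-28113658 and 351 bp inside the gene, the authors' deposited table gives 6.39 in ChIP, 5.27 in input and a log2 fold of 1.12 (FDR 0.00215). At chr2:28200779-28201278, 87971 bp inside, it gives 6.39, 5.46 and a log2 fold of 0.94 with an FDR of 0.00854. At chr2:28497647-28498146 it gives 6.88, 5.98 and a log2 fold of 0.89 with an FDR of 0.00599. This last site lies 5847 bp beyond the strongest one and had the highest input of the 7 sites, above 90.5% of all sites. Its ChIP concentration was the third highest of the 7 and its fold the lowest, so the order of the sites by ChIP level was not their order by fold. Of the 8855 protein-coding genes with a site, 4.89% had 4 or more sites, the number of BRE. A long gene can be paired with more sites, and the count was not scaled to length. The strongest inner site of BRE exceeded its start site by 1.39 on the log2 scale, 37th of the 793 genes with both.

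BRCC3, the deubiquitinase gene, had a single site, which covers the start. In the authors' deposited table the site at chrX:154299590-154300089 had 5.74 in ChIP and 3.96 in input, with a log2 fold of 1.79 (FDR 0.000544). It begins 105 bp before the listed start. Of the sites near a start, 18.8% had a larger fold, and by listed starts BRCC3 had the strongest start site of the group, ahead of BRE at 1.12 and UIMC1 at 0.99. By the RefSeq starts matched above, the 5.42 site of UIMC1 would be the strongest. The BRCC3 site had the lowest ChIP concentration of the 7 sites, 14895th of 15131, and its input was lower than that at all but 0.965% of sites. The fold of BRCC3 therefore rests on fewer normalized reads than that of most sites. On the X chromosome 2.91% of the 275 sites had less input, and their median input was 5.11 against 5.42 over all sites. Of the 848 protein-coding genes of the X chromosome, 19.8% had a site and 9.32% had one within 1 kb of the start.

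**Figure D3:**
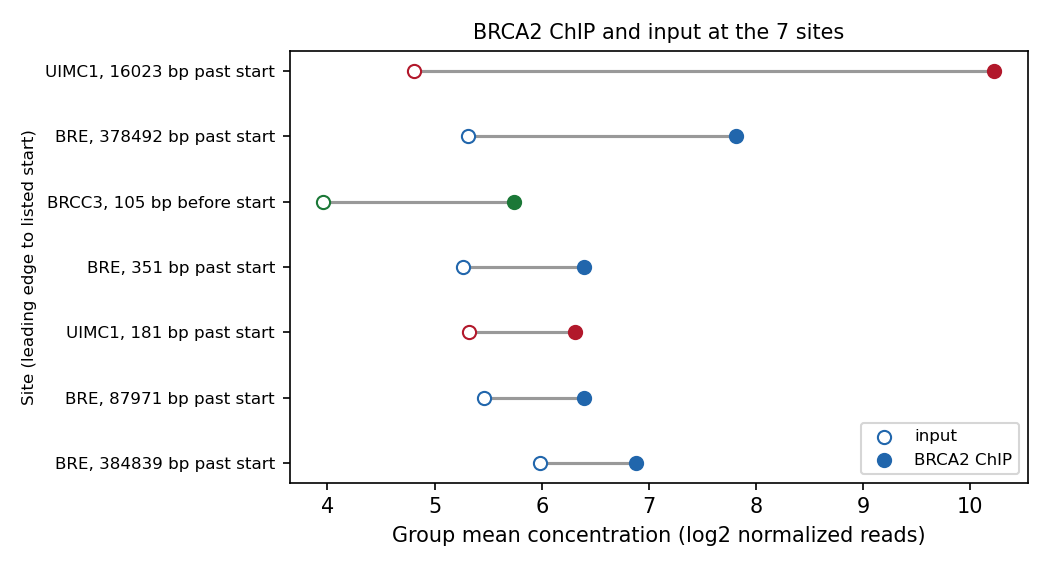
Group mean log2 concentration of normalized reads at the 7 sites, input as open circles and BRCA2 ChIP as filled circles, joined by a line whose length is the log2 fold. UIMC1 at 16023 bp has the longest line (4.81 to 10.22), and BRCC3 is the lowest in both groups (3.96 and 5.74).

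By listed position the 7 sites fell into start sites and inner sites. The 3 start sites had log2 folds of 0.99, 1.12 and 1.79, where all 5042 sites within 1 kb of a start had a median of 1.26 and quartiles of 0.99 and 1.63. The 4 inner sites ran from 0.89 to 5.42, and those of UIMC1 and the strongest of BRE were above the 1.1 median of sites away from starts, while the other 2 of BRE were below it.

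**Figure D4:**
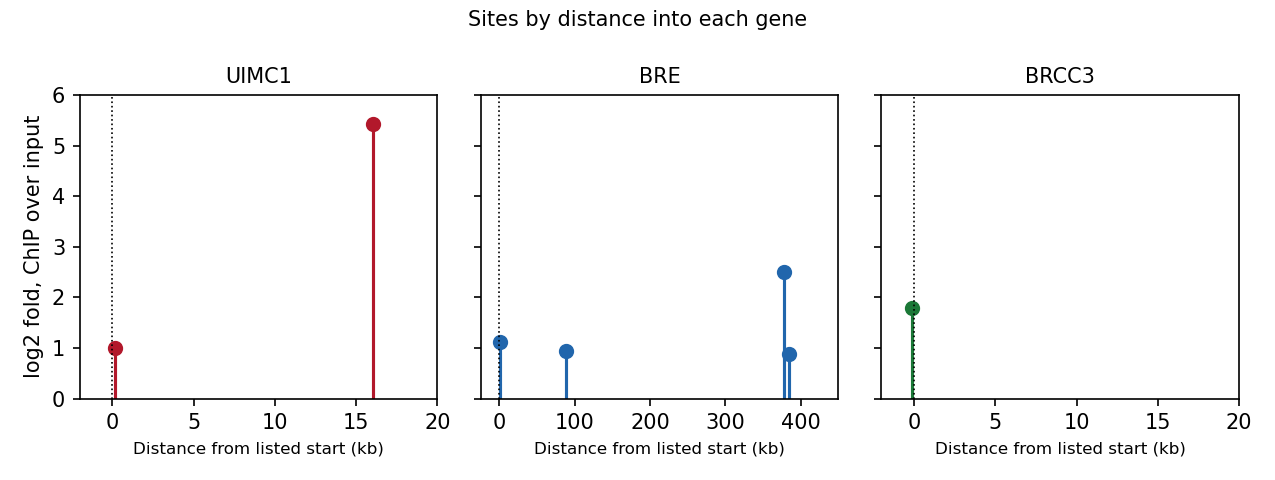
Log2 fold of each site against its distance from the listed start in kb, positive into the gene, for UIMC1, BRE and BRCC3 (the horizontal scale of BRE is longer). The tallest line of UIMC1 stands 16023 bp inside and that of BRE 378492 bp inside.

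By listed starts, all 3 start sites also lay near the start of a gene on the opposite strand. The listed starts of UIMC1 and ZNF346, a zinc finger gene, are 63 bp apart and point away from each other. Those of BRCC3 and CMC4, a small mitochondrial protein gene, are 58 bp apart and also point away from each other. BRE and RBKS, the ribokinase gene, overlap head to head with starts 1157 bp apart, and the site lies between them. Of all 5042 sites within 1 kb of a start, 26.0% had listed starts on both strands within that distance. For protein-coding starts, as these 6 are, the share was 14.7%. The signal at such a site cannot be divided between the neighbours. By listed starts, the start sites of UIMC1, BRE and BRCC3 thus belong equally to ZNF346, RBKS and CMC4. By the RefSeq starts matched above, no UIMC1 start falls within the site beside ZNF346. The BRCC3 site also lies inside MTCP1 and the BRE start site inside MRPL33, by the listed distances. For the strong site of UIMC1 and the 3 inner sites of BRE the table lists no gene start within 10 kb.

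FAM175A, the scaffold gene, and BABAM1 had no site, in different surroundings. The 4 protein-coding genes on each side of FAM175A on chromosome 4, among them MRPS18C, HELQ, a repair helicase gene, and HPSE, also had none, 0 of 8. On chromosome 4, 17.7% of 770 protein-coding genes had a site, and the median input of its sites was 4.51, against 5.42 over all sites. A lack of sites at FAM175A itself and the few sites and low input of this chromosome cannot be told apart. Around BABAM1 on chromosome 19, 7 of 8 neighbours had a site, beside 45.9% of the genes of that chromosome. Near the listed start 5 had one, beside 23.4% of all protein-coding genes. Neighbours can share a site, as ABHD8 and MRPL34 did, so these counts are not of separate sites. The authors' deposited table gives a log2 fold of 1.51 with an FDR of 0.000185 at chr19:17393337-17393836, over the listed start of USHBP1 and just inside ANKLE1. In RefSeq order these 2 genes lie on either side of BABAM1. Whether the listed start of USHBP1 is also a RefSeq start was not analysed here. Another USHBP1 site, at chr19:17371464-17371963, had 0.97 with an FDR of 0.00975 in the authors' deposited table. No FDR in the table exceeds 0.05, and a missing row means only that no such site was paired with the gene. A weaker signal at FAM175A or BABAM1 would not be listed.

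The surroundings of the other genes differed too. Of the 8 neighbours of UIMC1, 4 had a site, none above a log2 fold of 1.65, against 5.42 at the strong site of UIMC1. For ZNF346, the only site was the weak one that it shares with UIMC1. Of the 8 neighbours of BRE, 7 had a site, and the next gene past its end, FOSL2, an AP-1 factor, had a log2 fold of 3.69 (FDR 1e-25) in the authors' deposited table, at a site over its start. This exceeded every site of BRE. RBKS and MRPL33 share sites with BRE and also had sites not paired with it. Of the 8 neighbours of BRCC3, 4 had a site, and among these were CMC4 and MTCP1, which share its own.

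**Figure D5:**
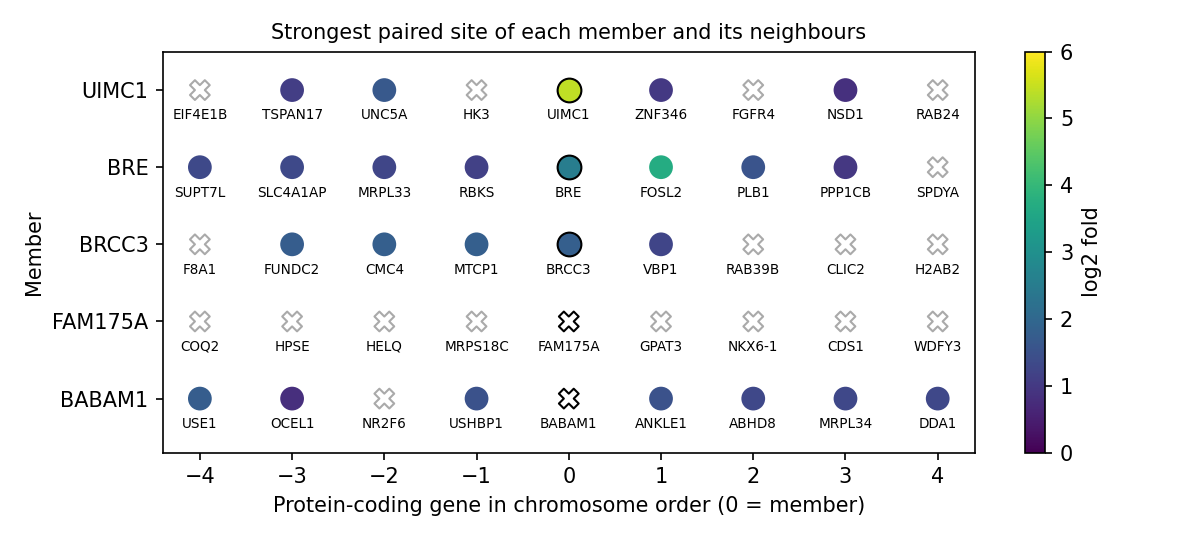
Each of the 5 genes (position 0, black outline) with the 4 protein-coding genes on either side in RefSeq order, coloured by the log2 fold of the strongest paired site, crosses where no site was paired. FAM175A has crosses throughout, while BABAM1 has a cross amid 7 neighbours with a site.

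Genes that act beside the complex carried weaker sites than UIMC1, as did 98.8% of the 8855 protein-coding genes with a site. Of 23 such genes, 15 had a site (65.2%, beside 44.2% of all protein-coding genes) and 12 had one near the start (52.2%, beside 23.4%), and the strongest site per gene had a median log2 fold of 1.16. The largest value was 2.05, below the 5.42 of UIMC1. At stricter limits, given at the end, the share with a site came close to that of all protein-coding genes or fell below it. These lists overlap in function with the complex and were not tested.

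Of the 10 genes listed around the ubiquitin signal UIMC1 reads, 5 had a site, beside 44.2% of all protein-coding genes. RNF8, the ligase that starts that signal, had a log2 fold of 2.05 with an FDR of 4.46e-09 in the authors' deposited table. This site lies 29875 bp before its start, and the site at the start itself had 1.16. ATM, the kinase that triggers the cascade, had 1.66 just inside the gene and 1.16 over the start in the authors' deposited table. H2AFX, the histone variant it phosphorylates, had a log2 fold of 0.90 there, and RNF168, the ligase that extends the signal, 0.92. UBE2V2, a partner of the conjugating enzyme UBE2N, was paired only with sites past its end, the stronger at 1.46 and 11608 bp away. MDC1, UBE2N, UBE2V1, L3MBTL1 and HERC2 had none. RNF8 was thus paired with a stronger site away from its listed start than over it. Whether that site also lies in another gene is not given here.

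BRCA1 and its partner BARD1, which the complex carries, both had a start site, with log2 folds of 0.71 (FDR 0.0242) and 1.61 (FDR 0.000186) in the authors' deposited table. Among all protein-coding genes, 23.4% had a start site. Of BRCA2 and the BRCA1 partners outside the complex, 3 of 5 had a site, beside 44.2% of all protein-coding genes. In the authors' deposited table BRCA2 itself had a log2 fold of 1.18 at the start, RBBP8, a resection factor, 1.20 deep inside the gene, and BRIP1, a helicase, 0.87. PALB2 and TOPBP1 had none. All 4 genes listed around TP53BP1 had a site, beside 44.2% of all protein-coding genes. In the authors' deposited table MAD2L2 had a log2 fold of 1.44, RIF1 1.16, USP28 1.00 and TP53BP1 0.78. Of the BRISC subunits outside BRCA1-A, SHMT2 had 0.85 near its start and FAM175B had none.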

How the data were processed

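hTert-HME1 cells gave 2 BRCA2 ChIP and 2 input libraries. Per the submitters' processing notes, the tools were DiffBind, MACS2, Picard 1.92, SAMtools, Bowtie 1.1.1 and cutadapt 1.8.1, on hg19. Their settings were not given in the sources used here. For each site the authors' deposited table gives log2 group mean concentrations, their log2 fold, an FDR (a q-value, up to 0.05), and distances in bp (a signed score) to listed gene starts, per the file headers. Fold and concentration difference never diverged by more than 0.01. The table holds no value per library, so depth is unknown, replicate spread could not be had and no test was rerun. Start positions count from 0 in the deposited file and from 1 here.

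Sites were matched to genes by Entrez ID, then symbol, with the GRCh38.p14 RefSeq table, which gave names and gene order (13801 of 23317 rows matched a protein-coding gene). A start site lay over the listed start or within 1 kb of it. Distances to neighbouring starts were taken within each build. Every member and every listed related gene is named, except 1 that is not reported here. The members and lists were chosen with earlier results of these data known. Python 3.11.15 with pandas 2.3.3 was used, tested on simulated data.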

Additional observations from a re-analysis of the deposited data

How the results depend on the processing

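The count of 3 members with a site held under an FDR of 0.01 and of 0.001. It also held with a log2 fold of at least 1 and with sites overlapping the gene. It was 2 at a log2 fold of at least 2 (UIMC1 and BRE). It was also 2 with the nearest listed start alone, where CMC4 replaced BRCC3. That replacement rests on the distance from the lower-numbered edge of a site that covers both starts. The 3 members with a start site kept it within 3 kb, within 5 kb and by the shortest distance, and 2 had it at a log2 fold of at least 1, an alternative chosen after seeing the data. Of the 7 sites, 7 were under an FDR of 0.01, beside 74.0% of all sites, and 3 under 0.001, beside 44.6%. A log2 fold of at least 1 was held by 4, beside 66.9%, and one of at least 2 by 2, beside 10.9%. These thresholds were also added after seeing the data. Of the 23 related genes, 15 had a site, beside 44.2% of all protein-coding genes, and 10 had one under an FDR of 0.01, beside 37.0%. Under 0.001 the count was 6, beside 26.0%. At a log2 fold of at least 1 the count was 9, beside 34.7%, and at 2 it was 1, RNF8, beside 7.82%. Under an FDR of 0.001 the share of related genes was about that of all protein-coding genes. At a log2 fold of at least 2 it was below it. No paired analysis was possible because only group means were deposited, with no values of single libraries, and for the same reason no replicate could be left out.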
